A study of Mus musculus with 6 samples.

Results

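Expression of 6 genes of androgen signaling and of the prostate epithelial lineage, Fkbp5, Tmprss2, Hoxb13, Foxa1, Trp63 and Psca, was examined in N18-Fms prostate cancer cells with and without CSF-1. The genes were chosen by name, and every probe the array files name for them was taken, which gave 9 probes of 55681 and 6 genes of 36163. Total RNA was profiled on 6 single-color Agilent mouse arrays in 3 groups of 2: cells left unstimulated, labelled as vehicle-treated, and cells given recombinant murine CSF-1 (100 ng/mL), either for 24 h or for 48 h. The labels and the legend of the study give these times, while its methods give shorter ones, and the labelled times are used throughout.

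All 3 groups, the unstimulated cells included, shared the same genetic background and medium. N18 is a luciferase-transfected clone of C2H, a clonal line from a prostate tumor of the TRAMP mouse, in which a probasin promoter drives viral T antigen in the prostate epithelium. N18-Fms cells carry in addition the murine c-fms cDNA, which encodes the CSF-1 receptor, brought in with a retrovirus, and were sorted by flow cytometry for the receptor. The cells were therefore 1 engineered clone-derived population. The medium held 10% serum and dihydrotestosterone, at 100 mM in the labels and in the micromolar range in the methods, so that androgen was present in every group and no group was without it.

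Androgens act on prostate cells by changing transcription, at sites opened by the pioneer factor FOXA1 and shared, in the prostate, with the homeobox protein HOXB13. Classical androgen targets in prostate cells are FKBP5, an immunophilin co-chaperone of steroid receptors that is also induced by glucocorticoids, and TMPRSS2, a membrane serine protease. TRP63 encodes p63, the transcription factor of basal epithelial cells, and PSCA is a small membrane-anchored protein of the LY6/uPAR family found on prostate epithelium and on many prostate tumors.

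The 3 members with signal above background were Fkbp5, Trp63 and Psca, and the probes that carried their signal are given here with their position on mouse build mm9. The Fkbp5 probe (designed on NM_010220) lies on the minus strand at chr17:28536060-28536119, and its first 30 bases are shown. The Psca probe (NM_028216) lies on the plus strand at chr15:74546879-74546938 and is shown whole.
Fkbp5: gggaggccctgtctcaaaacaaaacaaaaa
Psca: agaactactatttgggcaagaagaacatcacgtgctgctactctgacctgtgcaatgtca

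Trp63 had 4 probes, all on the plus strand of chromosome 16, and they are shown because they did not give the same result. The probe that stood for the gene, as the one with the highest mean signal, was designed on NM_001127261 and lies at chr16:25871159-25871218. Its sequence holds 6 consecutive CAG units. Only 1 other probe on the array shares a stretch of 20 bases with it, a probe for the transcriptional coactivator Crebbp (NM_001025432, minus strand, chr16:4084710-4084769). Both are printed whole, with the 20 shared bases in capitals.
Trp63, NM_001127261: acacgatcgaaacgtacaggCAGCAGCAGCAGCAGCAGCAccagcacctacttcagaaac
Crebbp, NM_001025432: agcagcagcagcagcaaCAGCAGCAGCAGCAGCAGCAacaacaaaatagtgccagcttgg

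The other 3 Trp63 probes hold no such repeat, and the first 30 of their 60 bases are shown. Along the gene they lie at chr16:25821344-25821403, designed on the cDNA clone AK138305, at chr16:25867718-25867777, designed on the clone AK048623, and at chr16:25892012-25892071, designed on NM_011641.
Trp63, AK138305: acttaccatgtgtcctggctatagcttttc
Trp63, AK048623: cagtcccatataccatgcacttaactcttt
Trp63, NM_011641: caaaaggtactttcttatagacatgatact

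Across the 6 arrays, 58.7% to 72.0% of 59305 spots other than controls were flagged by the scanning software as well above background, and 0 were saturated. The first 24 h array came from another slide and scan than the other 5. In the check of cell identity, Krt8 and Cldn7 were well above background on 6 of 6 arrays, Krt18 on 3, Epcam on 1, and E-cadherin (Cdh1) on 0. The 6 mesenchymal or smooth muscle markers, vimentin and fibronectin among them, were above background on 6 of 6 arrays. Of 5 macrophage markers 3 were above background on all arrays, unstimulated ones included, and Lyz2 on none.

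Of the members, Fkbp5 was downregulated after 24 h of CSF-1 and lay closer to the unstimulated level at 48 h, Psca was downregulated at 48 h, and Tmprss2, Hoxb13 and Foxa1 were not well above background on any array. A gene entered the test if both arrays of 1 or more groups were well above background, which held for 3 of the 6 members and for 24648 genes in all. By the thresholds of the legend of the study, an unadjusted p under 0.05 in limma with at least a 2-fold change, 0 of the 3 tested members were called at 24 h, where 7.68% of all tested genes were called. The count was also 0 of 3 at 48 h (6.48% of all tested genes) and between 48 h and 24 h (2.27%). By a Benjamini-Hochberg adjusted p under 0.05 over all tested genes, 1 of 3 was called at 24 h (Fkbp5) and 1 of 3 at 48 h (Psca), against 14% of all tested genes at each time. Between 48 h and 24 h the adjusted count was 0 of 3 members, and 0% of all tested genes. At an unadjusted p under 0.05 in limma, without the fold threshold, the 3 comparisons gave 2, 1 and 1 of the 3 members, where 31.3%, 30.9% and 13.6% of all tested genes passed.

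**Figure D1:**
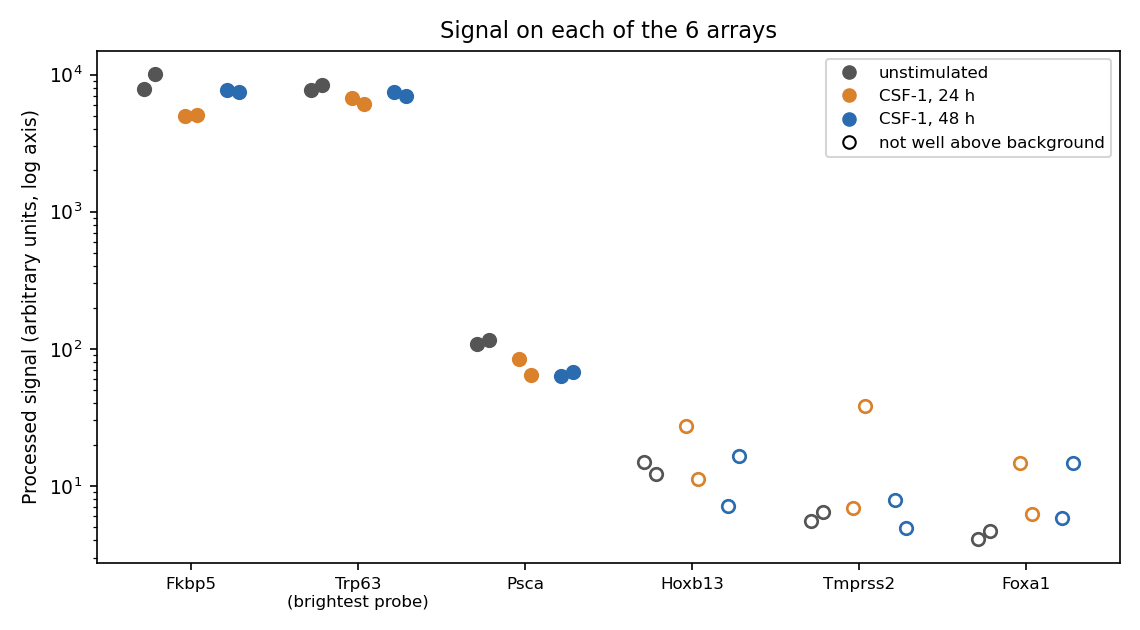
Processed signal (log axis) of the probe that stands for each gene on each of the 6 arrays, with unstimulated cells in grey, 24 h of CSF-1 in orange and 48 h in blue, and open circles for spots that were not well above background. The heights of different probes cannot be compared, and within Fkbp5 both 24 h arrays lie below the other 4.

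Fkbp5 was well above background on all 6 arrays. Its processed signal, in arbitrary units, was 7811 and 10110 in unstimulated cells, 4985 and 5063 at 24 h, and 7673 and 7492 at 48 h. Both 24 h arrays lay below the other 4, and both 48 h arrays lay below both unstimulated ones. Relative to the 75th percentile of each array, on the log2 scale, the level was 3.94 ± 0.16 (SD, n = 2) without CSF-1, 3.10 ± 0.03 at 24 h and 3.72 ± 0.11 at 48 h.

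At 24 h the Fkbp5 level was 56.1% of the unstimulated one, a log2 difference of -0.83 with a standard error of 0.13 and a 95% interval from -1.16 to -0.50 (limma adjusted p = 0.0182). Among the 24648 tested genes this change stood at the 3.14th percentile, counted from the most negative. In bulk RNA, fewer expressing cells and less RNA per cell cannot be told apart. At 48 h the log2 difference was -0.22, with an interval from -0.55 to 0.11 (limma adjusted p = 0.317). The direct comparison of 48 h with 24 h gave 0.61, with an interval from 0.28 to 0.94, a 1.53-fold higher level whose unadjusted limma p was 0.00456 and whose adjusted p was 0.174. The adjusted p at 24 h rose to 0.0838 without the second unstimulated array, to 0.0813 without the first 24 h array and to 0.0856 without the second. With each array centred on its median instead, the 24 h difference was -1.12 and passed the 2-fold threshold, while the median of all tested genes moved from 0.04 to -0.25.

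Psca was well above background on all 6 arrays. Its signal was 108.7 and 116.3 in unstimulated cells, 83.64 and 63.91 at 24 h, and 63.59 and 67.46 at 48 h. All 4 stimulated arrays lay below both unstimulated arrays, and the 2 stimulated groups overlapped. On the log2 scale relative to the 75th percentile, the level was -2.366 ± 0.037 (SD, n = 2) without CSF-1, -2.998 ± 0.318 at 24 h and -3.14 ± 0.029 at 48 h.

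At 48 h Psca was at 58.5% of the unstimulated level, with a log2 difference of -0.77, a standard error of 0.17 and an interval from -1.20 to -0.34 (limma adjusted p = 0.0429). At 24 h the difference was -0.63, with an interval from -1.06 to -0.20 (limma adjusted p = 0.0686), and between 48 h and 24 h it was -0.14, with an interval from -0.57 to 0.29 (adjusted p = 0.748). The adjusted p at 48 h passed 0.05 no longer when any 1 of the 4 arrays compared was left out: it was 0.158 and 0.136 without the first and the second unstimulated array, and 0.132 and 0.158 without the first and the second 48 h array. Leaving out the first 24 h array turned the direction of the small difference between 48 h and 24 h, to 0.08. The 24 h difference was -0.41 without the second 24 h array and -0.86 without the first. Normexp background correction with the 75th percentile shift gave -0.30 at 24 h and -0.43 at 48 h (limma adjusted p = 0.128 and 0.0377).

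**Figure D2:**
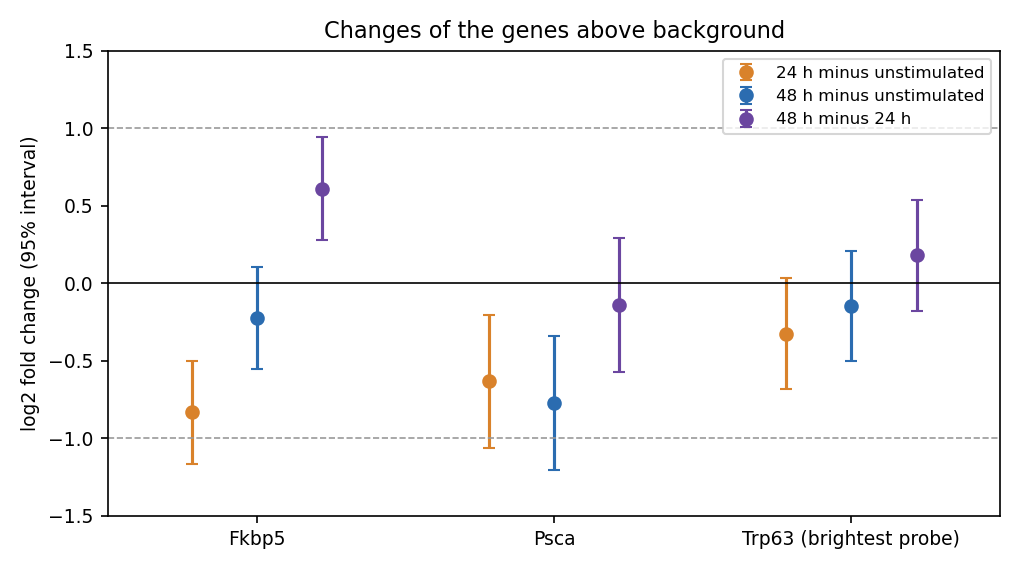
Log2 fold changes from limma for the 3 tested genes, as points with 95% intervals, for 24 h minus unstimulated (orange), 48 h minus unstimulated (blue) and 48 h minus 24 h (purple); dashed lines mark a 2-fold change. The interval of Fkbp5 excludes 0 at 24 h and includes it at 48 h, and that of Psca excludes 0 at both times.

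The result for Trp63 depended on the probe. The repeat-bearing probe that stood for the gene gave a signal of 7724 and 8341 in unstimulated cells, 6812 and 6109 at 24 h, and 7514 and 6936 at 48 h. Both 24 h arrays lay below the other 4, and the 48 h arrays lay below the unstimulated ones. Relative to the 75th percentile of each array, the 24 h and 48 h groups overlapped. Its log2 difference from unstimulated cells was -0.33 at 24 h, with an interval from -0.68 to 0.03 (limma adjusted p = 0.192), and -0.15 at 48 h, with an interval from -0.50 to 0.21 (adjusted p = 0.547). Between 48 h and 24 h it was 0.18 (adjusted p = 0.625).

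The probe on the clone AK138305 was well above background on the 2 arrays of 24 h and on none of the other 4. Its signal was 14.83 and 11 in unstimulated cells, 36.39 and 46.18 at 24 h, and 8.247 and 13.01 at 48 h, so that both 24 h arrays lay above the rest. The 24 h level of this probe was at least 2.53-fold that of unstimulated cells and at least 2.06-fold that of 48 h. No test is given, because the probe passed the filter on dim probes only through the group in which it was high. For these folds each dim array was set at the higher of the probe's own signal and the lowest signal flagged well above background on that array. That lowest signal is no strict detection limit. On the second 24 h array it was -4.264 on the log2 scale, and the Tmprss2 spot there, at -3.976, was not flagged. The folds are therefore lower bounds by this rule only.

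The remaining Trp63 probes were not well above background on any array. The AK048623 probe gave 4.083 and 4.675, then 20.79 and 15.71 at 24 h, and 5.835 and 3.588 at 48 h. The NM_011641 probe, on a reference transcript of the gene, ranged from 3.911 to 10.68 over the 6 arrays. Of the Trp63 probes, the 1 with the CAG run thus gave strong signal, and the NM_011641 probe gave none above background. Both were designed on reference transcripts of the gene, and the array lists no reference transcript that they share. They therefore need not read the same transcripts.

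**Figure D3:**
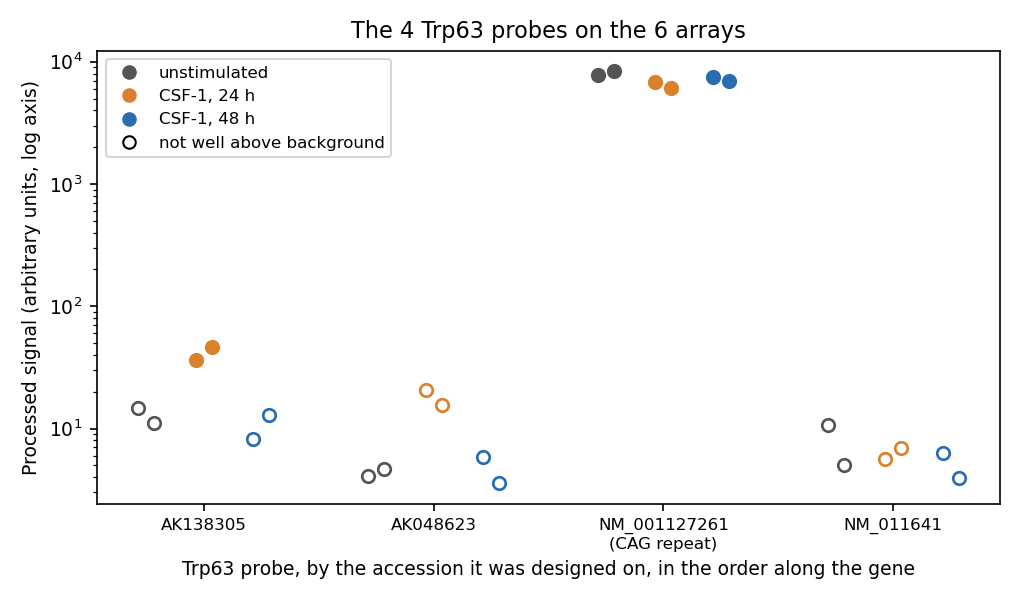
Processed signal (log axis) of the 4 Trp63 probes on the 6 arrays, ordered along the gene and named by the accession each was designed on, with open circles for spots not well above background. Filled points are seen on all 6 arrays for the probe with the CAG repeat and on the 2 arrays of 24 h alone for the AK138305 probe.

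The array held 3 probes with at least 6 consecutive CAG units, those of Trp63, Crebbp and BC051142, and 3 of 3 were well above background on all 6 arrays. With at least 4 units the count was 13 of 13, against 53% of all 55378 usable probes. The Crebbp probe gave 16080 and 17340 in unstimulated cells, 14420 and 13690 at 24 h, and 16170 and 14690 at 48 h. Its changes of -0.26 at 24 h and -0.11 at 48 h on the log2 scale lay near those of the Trp63 probe, whereas BC051142 changed by 0.18 at both times. Whether the repeat contributed to the Trp63 signal was not tested.

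Tmprss2, Hoxb13 and Foxa1 had 1 probe each, and none was well above background on any of the 6 arrays, so no fold change is given. The Tmprss2 probe (NM_015775, chr16:97786692-97786751, minus strand) gave 5.521 and 6.441 in unstimulated cells, 6.863 and 37.94 at 24 h, and 7.903 and 4.917 at 48 h. The second 24 h array stood apart from the other 5. The Hoxb13 probe (NM_008267, chr11:96057854-96057913, plus strand) ranged from 7.097 to 27.27 and the Foxa1 probe (NM_008259, chr12:58641764-58641823, minus strand) from 4.062 to 14.64. The CSF-1 arrays of Hoxb13 lay on both sides of the unstimulated ones. Those of Foxa1 lay above both unstimulated ones, at 5.849 to 14.64 against 4.062 and 4.703, with no spot well above background. A dim probe limits what can be said to the signal of that probe, and is no measure of the gene's other transcripts.

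Of 13720 genes that have a symbol in the RefSeq table and were well above background on all arrays, those with the profile over the 6 arrays nearest to Fkbp5, by the root-mean-square difference of centred log2 levels, were Emilin1 (0.057, Pearson r = 0.995) and Suox (0.058, r = 0.99). For Psca they were Slc25a15 (0.046, r = 0.994) and Ppp2r3a (0.053, r = 0.992). For the Trp63 probe they were Twist1 (0.032, r = 0.98) and Crebbp (0.036, r = 0.985), the latter measured with the probe that shares 20 bases. These are descriptions over 6 arrays that share 3 conditions.

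Around the members, 8 lists of related genes were described by counts at the same thresholds as above. The shares of all tested genes given with the first list stand beside the counts of all 8. Of 30 androgen-responsive genes of prostate cells, 27 were tested, of which 4 were upregulated and 2 downregulated at 24 h and 6 and 1 at 48 h, where 5.86% and 1.83% of all tested genes rose and fell at 24 h and 4.66% and 1.83% at 48 h. Ndrg1, a stress- and androgen-responsive gene, rose by 3.18 on the log2 scale at 24 h (SE 0.39, limma adjusted p = 0.00961) and by 2.88 at 48 h (adjusted p = 0.0128). Abcc4, a transporter of organic anions, rose by 1.90 and 1.69, and the elongation factor gene Ell2 by 1.59 and 1.08, each with an adjusted p under the threshold at both times. The transcription factor gene Maf fell, with log2 differences of -1.80 (adjusted p = 0.0232 at 24 h) and -1.08 (unadjusted p = 0.0158, adjusted p = 0.0799 at 48 h). The Maf call at 48 h was lost without the first unstimulated array (limma adjusted p = 0.219), without the second (0.228), and without the second 48 h array (0.26).

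Androgen-responsive genes thus included members that moved up while Fkbp5 moved down. The median of the 27 genes was 0.17 at 24 h and 0.24 at 48 h, against 0.04 and -0.04 for all tested genes, and at 24 h it lay between -0.12 and 0.18 depending on the scaling. The counts also depended on it: median centring gave 3 upregulated and 3 downregulated at 24 h and 3 and 2 at 48 h, and normexp background correction with the 75th percentile shift gave 3 and 0 at 48 h.

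Of 24 genes for steroid receptor chaperones, cofactors and steroid enzymes, 21 were tested, and at each time 1 was upregulated and 0 downregulated. The upregulated gene was Akr1c18, a hydroxysteroid dehydrogenase that inactivates progesterone, which rose by 2.26 at 24 h (SE 0.17, limma adjusted p = 0.00308) and by 3.86 at 48 h (adjusted p = 0.00102). Its 48 h level was higher than its 24 h level by 1.60 (unadjusted p = 0.00014, adjusted p = 0.104). With the adjusted p alone, 3 of the 21 passed at each time, where 14% of all tested genes passed. The 3 were Akr1c18 and, named after their values were seen, Nr3c1 and Fkbp4. Nr3c1, the glucocorticoid receptor, had log2 differences of -0.86 (24 h, adjusted p = 0.0181) and -0.84 (48 h, adjusted p = 0.0199). Fkbp4, another immunophilin co-chaperone of steroid receptors, had -0.56 (limma adjusted p = 0.038) and -0.72 (adjusted p = 0.0212). Tsc22d3, a glucocorticoid- and androgen-induced gene also named after its values were seen, had -0.94 (adjusted p = 0.0101) and -0.55 (adjusted p = 0.0389). None of Nr3c1, Fkbp4 and Tsc22d3 reached a 2-fold change on this scale. In the androgen-responsive list that holds Tsc22d3, Klf9 had 0.16 at 24 h and 0.22 at 48 h, Zbtb16 -0.24 and -0.09, and Sgk1 -0.40 and -0.57. None of Klf9, Zbtb16 and Sgk1 had a limma adjusted p under 0.05 at either time. At 24 h the adjusted p of Nr3c1 rose to between 0.0574 and 0.0917 when 1 of the 4 arrays compared was left out, and at 48 h to between 0.0734 and 0.0931. That of Fkbp4 was 0.0653 to 0.141 at 24 h without any 1 of the 6 arrays, and 0.0654 to 0.105 at 48 h without 1 of the 4 compared. That of Tsc22d3 was 0.0534 to 0.058 at 24 h without either unstimulated or the second 24 h array, and 0.0638 to 0.155 at 48 h without any 1 of the 6.

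**Figure D4:**
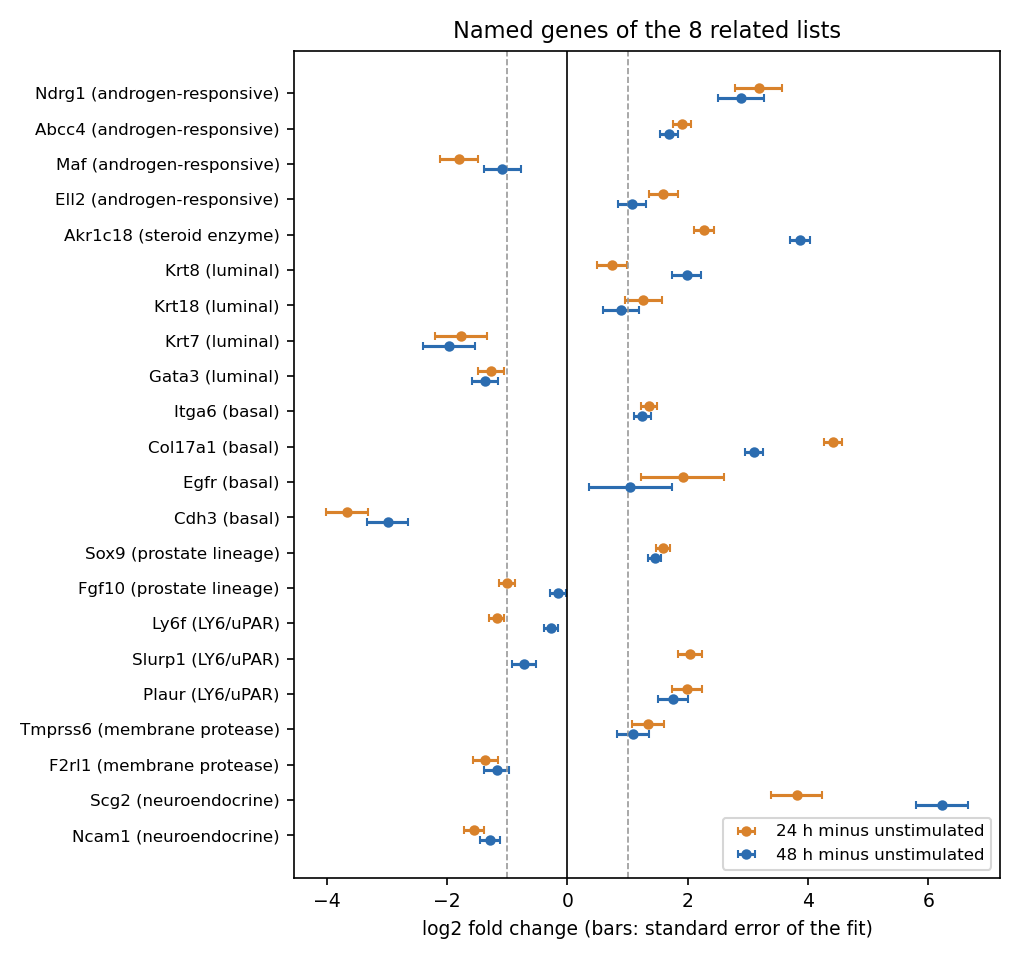
Log2 fold changes at 24 h (orange) and 48 h (blue) against unstimulated cells, as points with the standard error of the fit, for the genes named from the 8 related lists; dashed lines mark a 2-fold change. Slurp1 and Fgf10 change at 24 h and lie near or across 0 at 48 h; for Col17a1 and Krt18 the unstimulated spots were not well above background, so their plotted values are fits and not bounds.

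Luminal and basal genes, the lineages that Foxa1 and Trp63 mark, moved in both directions. Of 24 luminal genes 16 were tested, with 2 upregulated and 2 downregulated at 24 h and 1 and 2 at 48 h. The luminal keratin gene Krt8 rose by 1.98 at 48 h (SE 0.25, limma adjusted p = 0.0106), after a difference of 0.74 at 24 h (adjusted p = 0.112) that passed the 2-fold threshold only without the second unstimulated array (1.07). Krt18, its filament partner, was well above background on 0 of 2 unstimulated, 2 of 2 24 h and 1 of 2 48 h arrays. No p-value is given for Krt18, because it passed the filter on dim probes only through the 24 h group, where it was high. It was at least 1.86-fold higher at 24 h. Its fitted difference there was 1.26, and 0.81 without the first unstimulated array. Over the 4 other scalings that difference lay between 0.10 and 0.98. At 48 h the fitted difference of Krt18 was 0.89, and 1.34 without the second unstimulated array. Gata3 fell, with log2 differences of -1.27 (limma adjusted p = 0.0228) and -1.37 (adjusted p = 0.0196). Krt7 had fitted differences of -1.77 and -1.97. Over the 4 other scalings they lay between -2.06 and -0.67 at 24 h and between -2.07 and -0.79 at 48 h. No p-value is given for Krt7, because it passed the filter on dim probes only through the unstimulated group, where it was high.

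Of 24 basal genes 19 were tested, with 4 upregulated and 2 downregulated at 24 h and 2 and 2 at 48 h. Col17a1, a collagen of the hemidesmosome, was not well above background in unstimulated cells. On this scale it was at least 7.19-fold higher at 24 h and at least 2.89-fold higher at 48 h. Over the 4 other scalings its fitted log2 differences lay between 1.19 and 4.13 at 24 h and between 0.60 and 3.00 at 48 h. No p-value is given for Col17a1, because it passed the filter on dim probes only through the stimulated groups, where it was high. The laminin receptor gene Itga6 rose by 1.35 (SE 0.14, limma adjusted p = 0.00632) and 1.25 (adjusted p = 0.00743). P-cadherin (Cdh3) fell, with log2 differences of -3.67 (adjusted p = 0.0054) and -2.99 (adjusted p = 0.00832). Egfr had 1.91 at 24 h (SE 0.68), with an unadjusted p = 0.035 and an adjusted p = 0.128 in limma. This call was lost without the first unstimulated array (limma adjusted p = 0.361) or the second 24 h array (adjusted p = 0.354). Egfr had 1.05 at 48 h (adjusted p = 0.365), which was called without the first 48 h array alone (1.92). The basal keratin genes Krt5 and Krt14, which were tested and not called, had differences of 0.27 and 0.34 at 24 h and of -0.25 and 0.02 at 48 h.

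Of 22 mouse prostate secretory and lineage genes, 9 were tested, and 13, most of them secretory or patterning genes such as Msmb, Svs2 and Hoxd13, had no group in which both arrays were well above background. At 24 h 1 was upregulated and 2 were downregulated, and at 48 h 1 and 1. Sox9, a transcription factor of prostate bud epithelium, rose by 1.59 (SE 0.11, limma adjusted p = 0.00284) and 1.45 (adjusted p = 0.003). Fgf10, the stromal growth factor of prostate budding, had -1.01 at 24 h (adjusted p = 0.0117) and -0.15 at 48 h (adjusted p = 0.509). Its 24 h value lay at the 2-fold threshold and fell short of it without the second unstimulated array (-0.89) and without the second 24 h array (-0.94). Probasin (Pbsn), the secretory gene whose promoter defines the TRAMP model, was dim, with 1 of 2 unstimulated, 1 of 2 24 h and 2 of 2 48 h arrays well above background. Its fitted differences were 0.15 and -0.12 (SE 0.53), with limma adjusted p values of 0.887 and 0.909.

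The LY6/uPAR genes related to Psca included 15 tested genes of 18 listed, of which Ly6g was not found by name, with 2 upregulated and 1 downregulated at 24 h and 1 and 0 at 48 h. Plaur, the urokinase receptor gene, rose by 1.99 (SE 0.25, limma adjusted p = 0.0102) and 1.75 (adjusted p = 0.0152). Slurp1, a secreted member, rose by 2.04 at 24 h (SE 0.20, adjusted p = 0.00599) and had -0.73 at 48 h (adjusted p = 0.0722), a difference between the times of -2.77 (unadjusted p = 2.1e-05, adjusted p = 0.104). Ly6f fell at 24 h, with -1.18 (adjusted p = 0.00674), and had -0.27 at 48 h (adjusted p = 0.205). Between 48 h and 24 h, 3 of the 15 were called at the unadjusted threshold with 2-fold, where 2.27% of all tested genes were called. These were Slurp1, and the close paralogs Ly6a (1.14) and Ly6c1 (1.097), named after their values were seen, whose signals may not be independent. Psca, with -0.14 between the times, was not among them.

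A list of 19 genes held type II transmembrane serine proteases, the family of Tmprss2, with their inhibitors and related genes. Of these, 7 were tested, with 1 upregulated and 1 downregulated at each time. Tmprss6 was well above background on 1 of 2 unstimulated and on all 4 stimulated arrays, and had 1.34 at 24 h and 1.09 at 48 h. No p-value is given for Tmprss6, because it passed the filter on dim probes only through the stimulated groups, where it was high. Without the second unstimulated or the first 48 h array, the 48 h difference of Tmprss6 was 0.82 in each case. The downregulated gene was F2rl1, a receptor cleaved by such proteases and itself no protease or inhibitor. It had -1.37 (limma adjusted p = 0.0164) and -1.18 (adjusted p = 0.0245). Of 16 neuroendocrine genes 9 were tested, with 1 upregulated and 1 downregulated at each time. Scg2, a secretory granule protein, had fitted differences of 3.81 (SE 0.43) and 6.23, from unstimulated spots of which 1 of 2 was well above background. For the same reason as with Tmprss6, no p-value is given for Scg2. Ncam1, a neural adhesion molecule, fell, with -1.55 (adjusted p = 0.00721) and -1.29 (adjusted p = 0.0114).

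The medians of the other lists stand beside 0.04 at 24 h and -0.04 at 48 h for all tested genes. At 24 h the median log2 difference was -0.24 for the steroid receptor list, 0.05 for luminal, 0.16 for basal, -0.20 for prostate secretory and lineage, 0.03 for LY6/uPAR, 0.20 for membrane protease and -0.07 for neuroendocrine genes. At 48 h the values in the same order were -0.15, 0.11, -0.01, -0.15, 0.12, -0.03 and -0.16. With median centring the 24 h medians of the luminal, basal, LY6/uPAR and membrane protease lists were below 0, at -0.24, -0.12, -0.25 and -0.08, and with quantile normalization those of the luminal and LY6/uPAR lists were at -0.06 and -0.03. Of the genes named from the lists and called at 24 h, Fgf10 and Tmprss6 kept the call in 1 of the 4 other scalings, Ly6f in 2, and Egfr and F2rl1 in 3. At 48 h Tmprss6 kept it in 0, Ell2 in 1, and Maf, Col17a1 and F2rl1 in 2. Col17a1, Krt18, Scg2 and Tmprss6 passed the filter on dim probes only through stimulated groups, and Krt7 only through the unstimulated one. Counts and calls by p-value that include these genes are therefore no test of them. Not all of the named list genes with a limma adjusted p under 0.05 stayed under it when any 1 array was left out. Such a fit leaves 1 array in a group, and how many genes stayed under is therefore not given.

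Markers of other cell types moved beside these results. The smooth muscle genes Acta2 and Tagln fell, with log2 differences of -2.26 and -1 at 24 h (limma adjusted p = 0.0345 and 0.0364) and of -3.48 and -1.69 at 48 h (adjusted p = 0.012 and 0.0101). The endothelial cadherin gene Cdh5 had 3.87 and 3.97, fitted from unstimulated spots of which 1 of 2 was well above background. Cdh5 passed the filter on dim probes only through the stimulated groups, so no p-value is given. Relative to the 75th percentile of each array on a linear scale, the summed level of the 5 epithelial markers was 0.878 to 0.885 without CSF-1, 1.05 to 1.06 at 24 h and 1.3 to 1.45 at 48 h. At 48 h this rise lay mostly in Krt8, with a log2 difference of 1.98. Cldn7 had differences of 0 and 0.04 at the 2 times, and Epcam and Cdh1 were too dim to be tested. The summed level of the 6 mesenchymal or smooth muscle markers was 407 to 456, 357 to 399 and 319 to 366, and that of the 5 macrophage markers was 37.7 to 42.5, 26.4 to 33.7 and 21.3 to 30.6. These last sums mostly follow the probes of Vim and Itgam and do not describe every marker. Vim had differences of -0.16 at 24 h and -0.27 at 48 h, while Zeb1 had 0.55 and 0.25 and Fn1 0.19 and -0.03. Itgam had -0.43 and -0.65, while Ptprc had 0.68 and 0.15, Emr1 0.19 and 0.18, and Cd68 0.57 and -0.51, and none of these 7 genes had an adjusted p under 0.05 at either time. The 3 endothelial markers summed to 18.7 to 25.3, 20.4 to 23.9 and 18.6 to 21.4, so that their groups overlapped. The part of these markers in the changes of Fkbp5, Psca and Trp63 was not tested.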

How the data were processed

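Cy3-labelled RNA of N18-Fms cells from 2 independent experiments, per the labels, was hybridised to Agilent mouse arrays with probes of 60 bases, and the spots were quantified for the authors with Agilent Feature Extraction 11.0.1. The authors deposited for each array the background-subtracted, detrended spot signal, a linear intensity with no normalization between arrays, and log2 values of 44569 probes, whose normalization is not given in the sources used here.

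Spots other than controls were read in R 4.3.3 with the package data.table (version 1.17.8), outlier-flagged spots were left out (303 probes had none left), spots of a probe were averaged, and log2 signal minus the array's 75th percentile was taken. The probe with the highest mean stood for each gene. Genes for which both arrays of 1 or more groups were flagged well above background (24648 of 36028) were compared in limma 3.58.1 (lmFit, eBayes, 2-sided), in 1 fit of all 6 arrays with 3 residual and 2.39 prior degrees of freedom. A gene was called at an unadjusted p under 0.05 with at least 2-fold, and Benjamini-Hochberg p-values were taken over all tested genes. The fit was tested on simulated data. Replicate arrays correlated at 0.9926 to 0.9936 over genes, and 0 genes had identical values. An exact permutation test of 2 against 2 cannot go below p = 0.333. The number of arrays limits the precision.

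Members and lists were chosen with earlier results of these data known. Named from each list were at most 4 called genes with the largest mean change, and for each member above background on all arrays the 2 genes with the nearest profile. Groups came from the labels. Alternatives were median centring, quantile normalization, and normexp (offset 50) followed by a quantile or a 75th percentile step. Others were the log2 table of the authors, a filter on all 6 arrays or none, averaging the probes of a gene or taking each probe singly, an intensity trend, a fit of the compared groups alone, the methods' t-test, a replicate block and leaving out each array. Leaving out probes with 6 or more consecutive CAG units was added after the values were seen. Gene positions within exons or introns were not analysed here, for want of an annotation of build mm9.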

Additional observations from a re-analysis of the deposited data

How the results depend on the processing

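Each result was recomputed under 20 alternatives, of which 6 leave out 1 array each. The count of members called at 48 h was 0 in all 20, as was the count with an adjusted p under 0.05 between 48 h and 24 h. The count called at 24 h moved from 0 to 1 with median centring (Fkbp5), with every probe on its own and without the CAG-repeat probes (Trp63 in both). That between 48 h and 24 h moved from 0 to 1 with the mean of a gene's probes, without the CAG-repeat probes and with every probe on its own (Trp63 in each). With every probe on its own and without the CAG-repeat probes, the Trp63 calls come from the AK138305 probe. It passed the filter on dim probes only through the 24 h group, where it was high. Its calls, and the counts by adjusted p that include it in these settings, are therefore no test of Trp63. The count with an adjusted p under 0.05 at 24 h moved from 1 to 2 with quantile normalization, normexp with quantile normalization, all 6 arrays well above background, every probe on its own and the CAG-repeat probes left out, to 3 with median centring, and to 0 without a filter and with the methods' t-test (adjusted p of Fkbp5 0.0621 and 0.169). At 48 h that count moved from 1 to 0 without a filter and with the t-test. Leaving out 1 array gave 0 to 1 at each time, and the arrays are named beside the results. Fkbp5 at 24 h ranged from -1.12 to -0.72, Fkbp5 at 48 h from -0.33 to -0.11, Psca at 24 h from -0.92 to -0.30 and Psca at 48 h from -0.87 to -0.43, without a change of direction.

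Trp63 changed direction at 24 h with the mean of its probes (0.79) and without its CAG-repeat probe (1.67), and between 48 h and 24 h in the same settings (-1.02 and -1.97). The first setting averages all 4 probes, 2 of them above background on no array, and the second leaves the AK138305 probe, above background at 24 h alone, so these values are fits to dim spots and no measured sizes. Psca between 48 h and 24 h changed direction with quantile normalization (0.005), with median centring (0.043) and without the first 24 h array (0.084), its lowest value being -0.37 without the second, and the cause was not tested. Median centring shifted the median of all tested genes at 24 h from 0.04 to -0.25, and 52.4% of all calls were then lower, against 23.8%. Quantile normalization gave 38.5%. Normexp with the 75th percentile shift gave 585 higher and 289 lower calls at 24 h, in place of 1444 and 450.

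The replicate numbers of the labels were not tied to the experiments. Deviations of replicate 1 correlated between groups at 0.128, 0.0941 and 0.199. With the replicate block the members' counts stayed at 0, 0 and 0 called and at 1, 1 and 0 by adjusted p, with Fkbp5 at 24 h at -0.83 (limma adjusted p = 0.0307) and Psca at 48 h at -0.77 (adjusted p = 0.0412). Probes near background limit Tmprss2, Hoxb13, Foxa1 and 3 of the 4 Trp63 probes.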
